A study of Mus musculus with 28 samples.

Results

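The genes described here are the structural proteins of the axonal cytoskeleton that bundle into neurofilaments or sit on microtubules. They were taken from a fixed list of 10 gene symbols, Nefl, Nefm, Nefh, Ina, Map1a, Map1b, Map2, Mapt, Dcx and Dclk1, out of the 23995 genes for which ribosome-bound mRNA was listed. All 10 symbols were found. The list was set by name, without a rule on measured values but with earlier results of these data known.

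Neurofilaments are the intermediate filaments of neurons, and in mature axons they set axon calibre. They are assembled from a light (Nefl), a medium (Nefm) and a heavy (Nefh) subunit together with alpha-internexin (Ina), which is known as the subunit of young neurons. Microtubule-associated proteins bind along microtubules, stabilize them and space them: tau (Mapt) is known from axons, MAP2 (Map2) from dendrites and cell bodies, MAP1B (Map1b) from growing axons and MAP1A (Map1a) from mature neurons. Doublecortin (Dcx) and doublecortin-like kinase 1 (Dclk1) bind microtubules in migrating and outgrowing neurons.

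Axon-TRAP pulls down ribosomes by a hemagglutinin (HA) tag and sequences the mRNA bound to them. C57BL/6 mice carried the RiboTag allele, in which Cre recombination switches the 60S ribosomal protein gene Rpl22 to an HA-tagged form, and Cre came from the Pax6-alpha-Cre transgene, which acts in progenitors of the peripheral retina, so that tagged ribosomes in the superior colliculus (SC) are those in arriving axons of retinal ganglion cells (RGCs). Libraries came from Cre-positive SC, Cre-negative SC and Cre-positive retina at E17.5 (embryonic), P0.5 and P7.5 (postnatal, in days) and in the adult, with 2 libraries in each of 12 groups. Ribosome run-off was a separate experiment on adult Cre-positive mice, with 4 libraries: SC and retina, each without and with run-off. The Cre-negative littermates carried the RiboTag allele without Cre, so their SC libraries hold the mRNA that came down without a tag. Each library was a pool of tissue from several animals by the methods, and retina samples were taken as eyes. Pax6-alpha-Cre labels only the part of the RGCs that arise in the peripheral retina, along with the other cell types of that region. Nothing in the labels says that replicates were separate litters, and p-values then measure the spread between these libraries only.

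In the mouse genome mm10, Nefl lies on chromosome 14 from 68083863 to 68089095 (plus strand) and Nefm overlaps its exons on the minus strand, from 68082590 to 68124846. Nefh lies on chromosome 11 from 4938754 to 4948064 (minus) and Ina on chromosome 19 from 47014698 to 47025327 (plus), where it shares exonic sequence with Nt5c2 on the other strand. Map1a lies on chromosome 2 from 121289600 to 121310832 (plus) and shares exonic sequence with Ppip5k1 on the other strand. The other genes are Map1b on chromosome 13 from 99421446 to 99516540 (minus), Map2 on chromosome 1 from 66175273 to 66442583 (plus), Mapt on chromosome 11 from 104231390 to 104332090 (plus), Dcx on chromosome X from 143855842 to 143933311 (minus) and Dclk1 on chromosome 3 from 55242364 to 55539068 (plus). Map2 and Dclk1 also overlap annotated transcripts of the opposite strand. The cDNA method did not mark strand, so where exons overlap, reads of the partner genes cannot be told apart.

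The libraries differed in ways that touch every value below. Expression was deposited as FPKM, in which a gene's fragments are divided by transcript length and by library size, so that genes compare per length but read totals are not kept. By a rough estimate from the spacing of the lowest FPKM values, the 4 adult SC libraries and E17.5 Cre-negative SC replicate 1 held 242000 to 2140000 fragments, the other 11 SC libraries 6070000 to 13800000 and the retina libraries 2500000 to 10200000. Over the 5983 genes tested in SC, log2 values of the replicates correlated at 0.94 to 0.95 in the P0.5 groups, but at 0.35 to 0.73 in the SC groups of the other stages. An FPKM of exactly 0 need not mean absence, since Gapdh, which every cell uses, was listed at 0 in both libraries of 8 of the 12 groups. The P0.5 Cre-negative SC libraries listed 2162 and 2546 genes above 0, against 4620 and 4923 in P0.5 Cre-positive SC. The 8 RGC markers together reached 92.7 and 253 FPKM in P0.5 Cre-positive SC, 197 and 754 FPKM in P0.5 Cre-negative SC and 1231 to 4042 FPKM in P0.5 retina, with Rbpms, Pou4f3, Sncg and Thy1 at 0 in the 4 P0.5 SC libraries. All 3 markers of GABA neurons, the main resident inhibitory cells of the SC, were at 0 in those 4 libraries. C1qa, 1 of 5 microglial markers, was at 77.0 and 43.2 FPKM in P0.5 Cre-negative SC and at 0 in P0.5 Cre-positive SC, with the other 4 at 0 in both. Summed markers of other resident cells were above 0 in P0.5 Cre-positive SC, in each list through only some of its markers. The 7 oligodendrocyte markers reached 84.7 and 86.6 FPKM with Cre and 48.1 and 86.2 without, with 6 of them at 0 in both groups. The 6 astrocyte markers reached 51.9 and 60.8 with Cre and 15.9 and 38.3 without, with 2 of them (Gfap and Aqp4) at 0 in both groups. The 4 endothelial markers reached 27.9 and 60.9 with Cre and 46.5 and 82.6 without. Of these, 3 (Pecam1, Flt1 and Kdr) were at 0 in both groups, so this sum is Cldn5 alone. The part of depth and of other cells in the results was not tested.

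**Figure D1:**
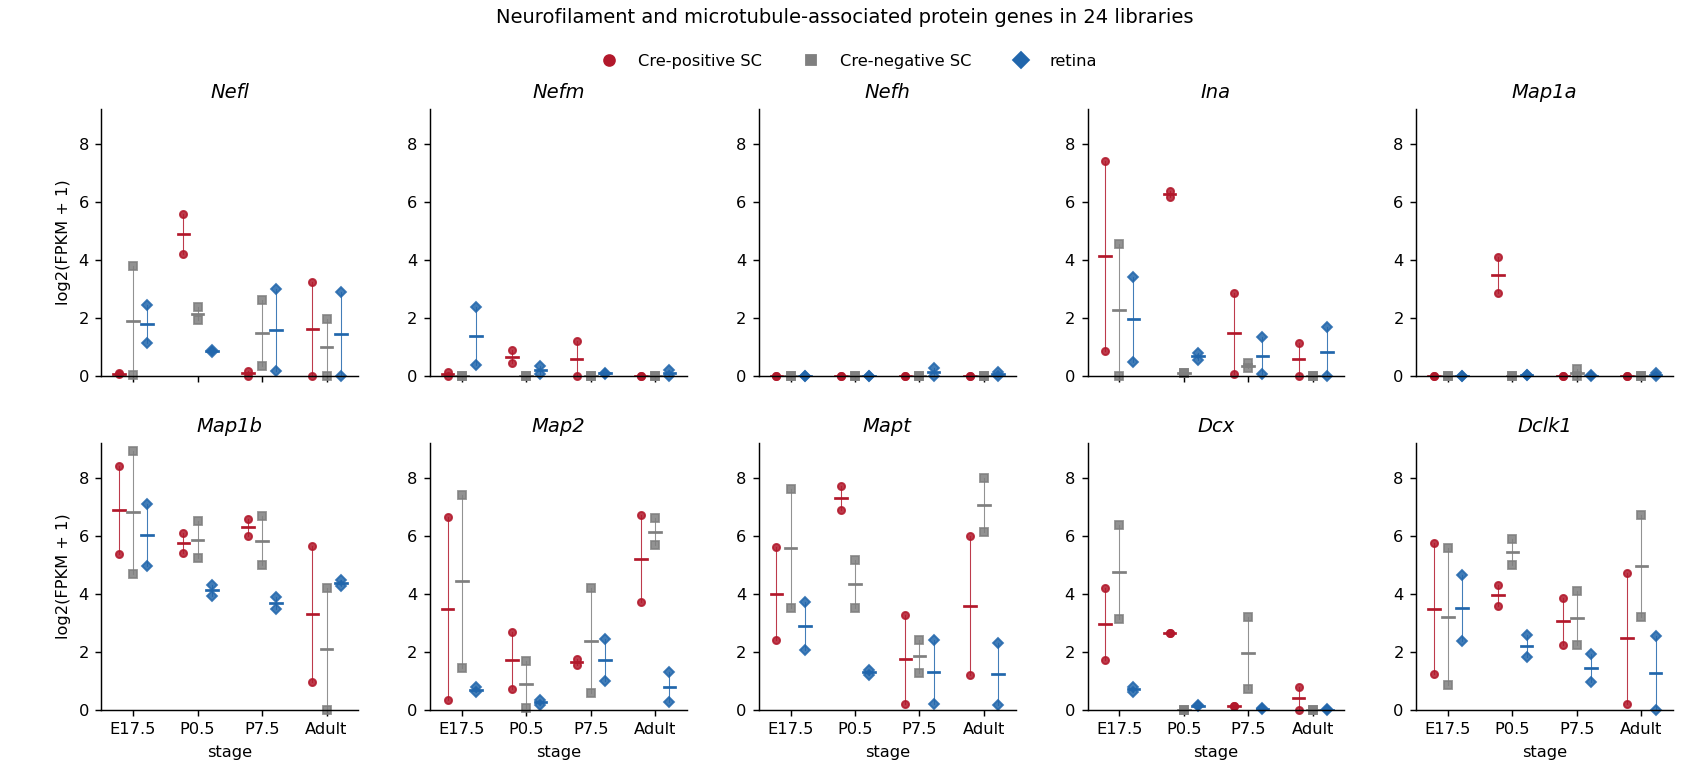
FPKM of the 10 genes in the 24 libraries, as log2(FPKM + 1) on the vertical axis against stage, with red circles for Cre-positive SC, grey squares for Cre-negative SC and blue diamonds for retina; each symbol is 1 library, a thin line joins the 2 replicates and a short bar marks their mean. Replicates lie close together at P0.5 and far apart in many SC groups of E17.5 and the adult, and Map1a rises from the axis in P0.5 Cre-positive SC alone.

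Among the neurofilament genes, Nefl and Ina carried nearly all of the signal, both with their clearest levels in axons at P0.5. Nefl was at 47.5 and 17.54 FPKM in P0.5 Cre-positive SC, at 4.22 and 2.82 in P0.5 Cre-negative SC and at 0.767 and 0.848 in P0.5 retina. Both P0.5 Cre-positive libraries lay above every other library of the series for this gene. In such pooled tissue, fewer tagged axons and less mRNA per axon cannot be told apart. At E17.5 it was at 0.0711 and 0.0424 in Cre-positive SC, 12.7 and 0.0379 in Cre-negative SC and 1.20 and 4.53 in retina. At P7.5 it was at 0.143 and 0 in Cre-positive SC, 5.12 and 0.259 in Cre-negative SC and 0.14 and 6.96 in retina. In the adult it was at 8.37 and 0, 2.96 and 0, and 0 and 6.43 FPKM in the same order of groups. Outside P0.5, then, at no stage were both axon libraries above both Cre-negative ones for Nefl, and at P7.5 both Cre-positive libraries lay below both Cre-negative ones.

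Ina was at 71.0 and 81.7 FPKM in P0.5 Cre-positive SC, against 0.071 and 0.0809 in Cre-negative SC and 0.74 and 0.481 in retina. These 3 groups did not overlap, and the 2 axon libraries differed by less than the gap to either of the other groups. At E17.5 it was at 168 and 0.817 in Cre-positive SC, 22.3 and 0 in Cre-negative SC and 0.399 and 9.78 in retina. The single highest value of Ina was thus that of E17.5 Cre-positive SC replicate 1, which replicate 2 did not share. At P7.5 it was at 0.0419 and 6.37, 0.207 and 0.362, and 0.0613 and 1.52 in the same order of groups, and in the adult at 1.22 and 0, 0 and 0, and 0 and 2.24. Nt5c2, its overlapping neighbour, was at 11.9 and 6.52 FPKM in P0.5 Cre-positive SC and at 0 in both P0.5 Cre-negative libraries, so it moved with Ina there at a lower level.

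Nefm and Nefh were scarcely listed. Nefm was above 0 in 4 of 8 Cre-positive SC libraries, in 0 of 8 Cre-negative SC libraries and in 7 of 8 retina libraries. Its values in P0.5 axons were 0.86 and 0.362 FPKM, its highest axonal value was 1.29 in P7.5 replicate 1, and its highest value of all was 4.25 in E17.5 retina replicate 2. Nefh was listed at 0 in all 16 SC libraries and in 6 of 8 retina libraries, with 0.201 in P7.5 retina replicate 2 and 0.0983 in adult retina replicate 2. A listed 0 is not read here as a level.

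Among the microtubule-associated proteins, Map1b was above 0 in 23 of 24 libraries, with a lowest, median and highest value of 0.932, 55.5 and 340 FPKM in the 8 Cre-positive SC libraries, of 0, 33.8 and 483 in the 8 Cre-negative SC libraries and of 10.1, 18.4 and 137 in the 8 retina libraries. Cre-positive and Cre-negative SC overlapped at every stage. At P0.5, for example, the values were 67.5 and 41.1 with Cre and 88.9 and 36.8 without.

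Mapt was above 0 in all 24 libraries. It was at 211 and 119 FPKM in P0.5 Cre-positive SC, at 34.7 and 10.3 in P0.5 Cre-negative SC and at 1.61 and 1.32 in P0.5 retina, in that order without overlap. At E17.5 it was at 47.9 and 4.27 in Cre-positive SC, 196 and 10.5 in Cre-negative SC and 3.20 and 12.1 in retina, and at P7.5 at 0.16 and 8.58, 4.33 and 1.40, and 0.156 and 4.33. In the adult the order of the SC groups was the opposite of that at P0.5, with 1.27 and 62.2 with Cre, 69.4 and 253 without Cre and 0.118 and 3.97 in retina. Tau mRNA was therefore at 10.3 FPKM or more in both libraries without a tag at 3 of the 4 stages, E17.5, P0.5 and the adult.

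Map2, the dendritic and somatic family member, was also above 0 in all 24 libraries. In adult SC it was at 103 and 12.2 FPKM with Cre and at 96.5 and 49.9 without, and in adult retina at 0.215 and 1.45. At P0.5 it was at 0.639 and 5.46 with Cre, 0.0563 and 2.22 without and 0.133 and 0.262 in retina. At E17.5 its replicates lay far apart in both SC groups, at 99.7 and 0.249 with Cre and at 170 and 1.70 without. The Cre groups thus overlapped at all 4 stages.

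In the stage series, Map1a was above 1 FPKM in a single group. The run-off experiment also held reads of this gene, in adult retina (81 without and 0 with run-off) and adult SC (6 and 339). Its stage values were 16.3 and 6.20 FPKM in P0.5 Cre-positive SC, and the other 14 SC libraries lay between 0 and 0.187 and the retina libraries between 0 and 0.0766. Ppip5k1, which shares exonic sequence with it, was listed at 0 in all 4 P0.5 SC libraries.

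Of the doublecortin family, Dcx was at 17.3 and 2.27 FPKM in E17.5 Cre-positive SC, 82.2 and 7.75 in E17.5 Cre-negative SC and 0.531 and 0.723 in E17.5 retina. At P0.5 it was at 5.33 and 5.20 with Cre, at 0 in both libraries without Cre and at 0.111 and 0.0836 in retina. At P7.5 it was at 0.0901 and 0.103 with Cre and 0.629 and 8.14 without, and in the adult at 0.717 and 0 with Cre and 0 in both libraries without. Each of the 4 later Cre-positive libraries (P7.5 and adult) was below each of the 4 earlier ones, and the same held in retina, where Dcx was at 0.0437 and 0.0109 at P7.5 and at 0 and 0.0141 in the adult. Over all genes above 0, 4.57% fell in this way in Cre-positive SC and 4.55% in retina.

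Dclk1, which joins a doublecortin domain to a kinase, was above 0 in all 16 SC libraries. At P0.5 it was lower in axons than in the libraries without a tag, at 18.9 and 10.9 FPKM against 58.5 and 30.9, with 4.98 and 2.56 in retina. At E17.5 it was at 52.7 and 1.33 with Cre and 46.2 and 0.811 without, and in the adult at 25.4 and 0.146 with Cre and 8.21 and 105 without. It was the only one of the 10 genes whose P0.5 Cre-positive libraries both lay below both Cre-negative ones.

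By median FPKM over the 8 Cre-positive SC libraries the order of the levels was Map1b at 55.5, Mapt at 28.3, Dclk1 at 12.1, Map2 at 3.89, Ina at 3.79, Dcx at 1.49, Nefl at 0.107 and Nefm at 0.0505, with Map1a and Nefh at 0. In retina it was Map1b at 18.4, Dclk1 at 3.50, Mapt at 2.40, Nefl at 1.02, Map2 at 0.627, Ina at 0.61, Nefm at 0.124, Dcx at 0.0636 and Map1a at 0.0121, with Nefh at 0. Neighbours in both orders overlapped over the libraries. Each gene from Map1b to Nefl in the Cre-positive SC order spanned more than a 10-fold range among its own 8 libraries. That order was not corrected for mRNA that came down without a tag. In Cre-negative SC the medians were 33.8 for Map1b, 23.4 for Dclk1, 22.6 for Mapt, 9.71 for Map2, 2.89 for Nefl, 0.315 for Dcx and 0.076 for Ina, and 0 for Nefm, Nefh and Map1a. The medians pool 4 stages that differ: among P0.5 axon libraries Mapt was above Map1b in both and Ina above it in both, and Nefl, near the end of the pooled order, was at 47.5 and 17.54 FPKM.

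**Figure D2:**
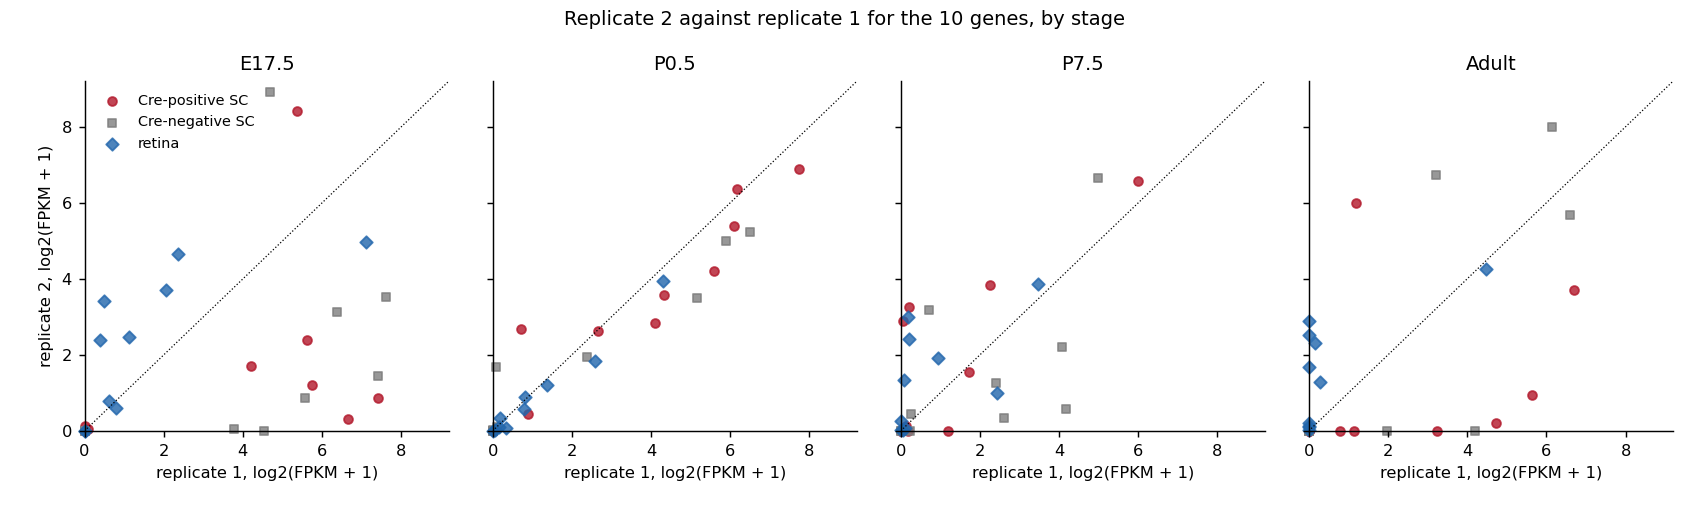
Replicate 2 (vertical) against replicate 1 (horizontal), both as log2(FPKM + 1), for the 10 genes at each stage, with 1 symbol for each gene in each group, coloured as in the plot of levels by stage, and a dotted line of equal values. Points follow the line at P0.5. At E17.5 the SC points lie off it in both Cre groups, with Map1b higher in replicate 2 and Ina, Map2, Mapt, Dcx and Dclk1 higher in replicate 1.

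The first comparison, Cre-positive against Cre-negative SC, asks which mRNAs were bound to tagged axonal ribosomes beyond what came down without a tag. At P0.5, 6 of the 9 genes above 0 were higher in both Cre-positive libraries than in both Cre-negative ones (Nefl, Nefm, Ina, Map1a, Mapt and Dcx) and 1 (Dclk1) was lower, while Map1b and Map2 overlapped. Of all genes above 0 at P0.5, 62.2% were higher in this sense and 12.8% lower, so the share of these genes was near that of the whole library. Nefm and Dcx were higher only against listed values of 0, and Map1a against 0 and 0.0148 FPKM. Such a 0 need not mean absence.

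In the limma fit across all genes, on log2(FPKM + 1) with Benjamini-Hochberg adjustment, 8 of the 10 genes passed the filter of at least 1 FPKM in at least 2 SC libraries, Nefm and Nefh being too low. At P0.5 Ina was higher by 6.16 ± 1.99 (SE) on the log2 scale, with an adjusted p of 0.0361. Map1a was higher by 3.47 ± 0.411, with an adjusted p of 6.86e-05. For the others the log2 differences were 2.75 ± 1.45 for Nefl (adjusted p = 0.202), 2.99 ± 1.95 for Mapt (0.331), 2.65 ± 1.23 for Dcx (0.14), 0.82 ± 2.38 for Map2 (1), -0.12 ± 1.99 for Map1b (1) and -1.50 ± 2.14 for Dclk1 (0.845). Thus 2 of 8 genes passed as higher and 0 as lower, where 28.1% of all genes tested passed as higher and 4.35% as lower. The median log2 difference was 2.70 over the 8 genes and 0.78 over all genes tested.

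The call on Map1a rests on the 2 P0.5 Cre-positive libraries. Map1a was 1 of 598 genes, out of 5983 tested, that entered the fit only through these libraries, and 597 of the 598 were called higher. Its SE also drew on groups in which it was listed at 0. Setting such genes aside, 1 of 7 of the genes (Ina) was called higher, against 20.2% of the remaining genes. Ina was no longer called without either P0.5 library of either group, and with no filter on low values its adjusted p was 0.0645. In a fit to the 4 P0.5 libraries alone, where the spread of the other stages had no part, 5 of 8 genes were called higher (Nefl, Ina, Map1a, Mapt and Dcx) and 0 lower, where 59.3% of all genes in that fit were higher and 8.67% lower.

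At the other 3 stages the limma fit called 0 of the 8 genes, where 1.57%, 0% and 0.150% of all genes tested passed at E17.5, P7.5 and adulthood. At an unadjusted p under 0.05 there were also 0 of the 8, where 6.07%, 1.40% and 3.08% of all genes had such a p. The log2 differences lay between -1.84 and 1.86 in the embryonic comparison, -1.81 and 1.11 in the P7.5 one and -3.48 and 1.19 in adults. By non-overlap, 0 of the 8 genes above 0 stood apart at E17.5, where 6.09% of all genes were higher with Cre and 5.81% lower. At P7.5 Nefl and Dcx were lower with Cre and 0 higher (6.92% and 4.46% of all genes), and in adults Mapt was lower and 0 higher (5.10% and 4.59%). Both Cre-positive libraries thus exceeded both Cre-negative ones for 6 of these genes at P0.5 and for 0 at the other stages, where an excess was not detectable with these libraries.

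**Figure D3:**
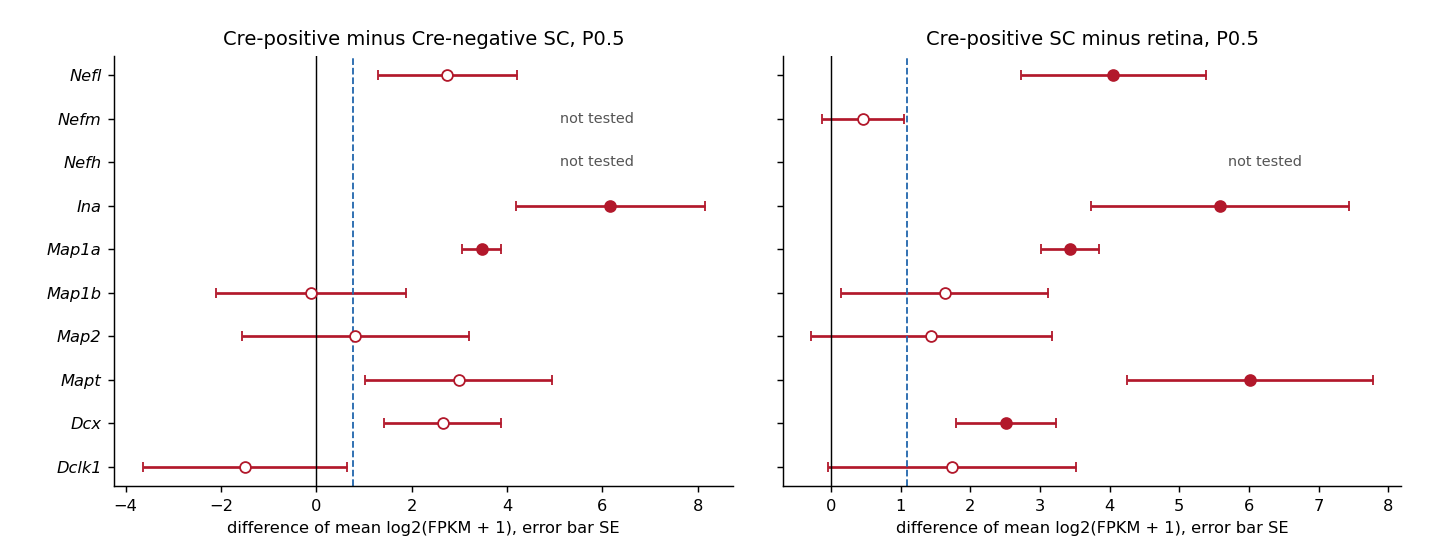
Differences at P0.5 of mean log2(FPKM + 1), for Cre-positive minus Cre-negative SC (left) and Cre-positive SC minus retina (right), with bars of 1 SE from the limma fits; filled circles passed an adjusted p of 0.05 and the dashed blue line is the median of all genes tested. Ina and Map1a are filled on the left, and Nefl, Ina, Map1a, Mapt and Dcx on the right.

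The second comparison follows axons from stage to stage. From E17.5 to P0.5 in Cre-positive SC, Nefl rose by 4.83 ± 1.45 on the log2 scale (adjusted p = 0.0299) and Map1a by 3.48 ± 0.411 (adjusted p = 7.6e-05), and 0 of the 8 genes fell, where 25.1% of all genes tested rose and 1.81% fell. From P0.5 to P7.5, Nefl fell by 4.81 ± 1.45 (adjusted p = 0.0289) and Map1a by 3.48 ± 0.411 (adjusted p = 7.56e-05), and 0 rose, where 29.2% of all genes fell and 0.501% rose. The light neurofilament subunit was thus higher in both P0.5 axon libraries than in all 4 axon libraries of the stages on either side. The calls on Nefl did not outlast the loss of a library: leaving out any 1 of the libraries compared gave an adjusted p of 0.0848 to 0.302 for the rise and of 0.0874 to 0.268 for the fall. Map1a again had entered the fit through the P0.5 Cre-positive libraries alone, so its rise and fall are given as values and not as tested differences.

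Ina and Mapt had P7.5 minus P0.5 differences of similar size, -4.80 ± 1.99 (adjusted p = 0.0993) and -5.58 ± 1.95 (adjusted p = 0.054), which did not pass. From P7.5 to the adult, limma called 0 of the 8 genes (0.0836% of all genes), and 0 had an unadjusted p under 0.05 (2.14%). When P7.5 and adult axons were set against E17.5 and P0.5 axons, Map1a alone was called, at -1.74 ± 0.291 on the log2 scale (adjusted p = 0.00148). In this contrast 0 were higher, where 25.8% of all genes were lower and 0.719% higher. As Map1a had entered the fit only through the P0.5 Cre-positive libraries, its difference is given as a value and not as a tested difference. The same contrast in Cre-negative SC called 0 of 8 (0.217% of all genes higher and 4.78% lower), with 0 of 8 also at an unadjusted p under 0.05 (14.5%).

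Whether the stage change differed between Cre-positive and Cre-negative SC was tested as an interaction. Map1a was called in both early intervals, at 3.47 ± 0.581 (adjusted p = 0.00131) from E17.5 to P0.5 and at -3.59 ± 0.581 (adjusted p = 0.0012) from P0.5 to P7.5. As the gene had entered the fit only through the P0.5 Cre-positive libraries, with an SE drawn from groups at 0, these are given as values and not as tested differences. The other 7 genes were not called, where 27.1% and 21.5% of all genes passed. For Nefl the interaction was 4.59 ± 2.05 (adjusted p = 0.138) in the first interval and -4.12 ± 2.05 (adjusted p = 0.209) in the second, so its rise and fall in axons were not shown to differ from the course in Cre-negative SC. In the interval from P7.5 to the adult limma called 0 of the 8, and 0% of all genes, and 0 of the 8 had an unadjusted p under 0.05 (2.24% of all genes).

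The third comparison sets axons against the retina that holds their cell bodies. At P0.5 all 9 genes above 0 were higher in both Cre-positive SC libraries than in both retina libraries, where 36.3% of all genes were higher and 36.0% lower. In the limma fit of Cre-positive SC and retina, 9 of the 10 genes were tested, 5 were called higher and 0 lower, where 32.7% of all genes were higher and 2.01% lower. Mapt was higher by 6.02 ± 1.77 on the log2 scale (adjusted p = 0.0203), Ina by 5.59 ± 1.85 (adjusted p = 0.0357) and Nefl by 4.05 ± 1.33 (adjusted p = 0.0338). Dcx was higher by 2.51 ± 0.712 (adjusted p = 0.0165) and Map1a by 3.43 ± 0.416 (adjusted p = 6.88e-05). Neither of these 2 genes reached 1 FPKM in any retina library, so both passed the filter through axon libraries alone. Map1a passed it through the P0.5 axon libraries only, so its difference is given as a value and not as a tested difference. Of the 5 called genes, Mapt and Nefl also stood above both retina libraries in P0.5 Cre-negative SC, and Ina, Dcx and Map1a did not.

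For Map1b, Map2, Dclk1 and Nefm the differences were 1.63 ± 1.48, 1.44 ± 1.73, 1.74 ± 1.78 and 0.46 ± 0.583, with adjusted p from 0.502 to 0.686. The median difference was 2.51 over the 9 genes and 1.10 over all genes tested. Leaving out either P0.5 Cre-positive SC library left 0 genes called, and leaving out either P0.5 retina library left Map1a alone. By the methods the SC cDNA had more rounds of PCR than the retina cDNA, and tissue and PCR cannot be told apart here.

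Outside P0.5, limma called 0 of 9 genes between Cre-positive SC and retina, where 1.31% (E17.5), 0.0158% (P7.5) and 0.0949% (adult) of all genes passed. At an unadjusted p under 0.05 the numbers were 2, 0 and 1, where 10.9%, 3.13% and 7.78% of all genes had such a p. By non-overlap at E17.5, Dcx was higher in Cre-positive SC (5.08% of all genes) and Nefl and Nefm were lower (23.7%). At P7.5 Map1b, Dcx and Dclk1 were higher (4.80%) and 0 lower (16.4%), and in adults Map2 was higher (3.65%) and 0 lower (11.9%). Cre-positive SC thus stood above retina for Dcx at 3 stages, E17.5, P0.5 and P7.5, and for Map1b and Dclk1 at P0.5 and P7.5. Both Cre-negative SC libraries also stood above both retina libraries in each of these cases but Dcx at P0.5, and for Map2 in adults. Dcx, for example, was at 82.2 and 7.75 FPKM in Cre-negative SC at E17.5 and at 0.629 and 8.14 at P7.5. How much of each difference came from axons was not tested.

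In retina alone, 6 of the 10 genes passed the filter (Nefl, Ina, Map1b, Map2, Mapt and Dclk1), and limma called 0 of them between consecutive stages, where 0%, 0.0490% and 0% of all 4083 genes passed from E17.5 to P0.5, P0.5 to P7.5 and P7.5 to the adult. At an unadjusted p under 0.05 there were also 0 of the 6 in each interval, where 0.833%, 2.42% and 1.40% of all genes had such a p. Later against earlier retina gave 0 of 6 as well (0.955% of all genes), and 0 at an unadjusted p under 0.05 (9.31%), with log2 differences from -1.51 to 0.77. The values of retina replicate 2 exceeded those of replicate 1 for Nefl at all 4 stages and for Ina and Mapt at 3, with P0.5 as the exception.

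Ribosome run-off was used to ask which mRNAs were held by elongating ribosomes, since these should leave their mRNA when elongation is let go on and initiation is blocked. There was 1 library for each condition and no Cre-negative control, so there is no replicate check and no test, and the values below compare libraries. Read counts on genes were 3262914 in SC without and 349395 with run-off, or 10.7% as many, and 4686284 in retina without and 315009 with run-off, or 6.72% as many. By the methods library input followed the amount of cDNA, which makes raw counts the comparison of that design, and shares of a library's reads are given beside them. PCR reads are not independent molecules, so the intervals below, 95% exact (Clopper-Pearson) ones turned into ratios of counts, cover counting error only.

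In adult SC, neurofilament mRNAs were abundant without run-off and nearly gone with it. Nefl had 1814 reads without and 12 with run-off, which is 0.662% as many (interval 0.341 to 1.16). Nefm had 362 and 0 reads (up to 1.02%), Nefh 436 and 0 (up to 0.85%) and Ina 177 and 1 (0.565%, interval 0.0142 to 3.19). For these 4 genes the interval lay below the 10.7% of the whole library. Nt5c2, which shares exonic sequence with Ina, went the other way, from 0 reads without to 70 with run-off. The part of the overlap in the values of Ina was not tested. As a share of the library's reads, Nefl was 16.2-fold lower with run-off, and with 3 reads as the floor of each library Nefm and Nefh were at least 12.9-fold and 15.6-fold lower. Of the 10 genes, 9 had 20 or more reads in SC with or without run-off, and 5 of these (the 4 neurofilament genes and Dcx) had a share at least 2-fold lower with run-off, as 55.2% of all such genes did. For 3, Nefl, Nefm and Nefh, it was at least 10-fold lower, as for 16.1% of all such genes. The floor of 3 reads held Ina at 6.32-fold and Dcx at 2.82-fold, so neither could reach 10-fold.

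Among the microtubule-associated genes of adult SC the values went in both directions. Map1b had 503 and 64 reads (12.7%, interval 9.65 to 16.5), which includes the 10.7% of the whole library. Mapt had 107 and 54 reads (50.5%, interval 35.7 to 70.6) and Dclk1 325 and 90 (27.7%, interval 21.7 to 35.1), both above the share kept by the library. Dcx went from 79 to 0 reads (up to 4.78%), below the library like the neurofilament genes, and Map2 had 2 and 1. Map1a went the other way, from 6 reads without to 339 with run-off, a 528-fold higher share of the library's reads. A share at least 2-fold higher was seen for Map1a, Mapt and Dclk1 (17.2% of all genes with 20 or more reads) and at least 10-fold higher for Map1a (9.14%). Its overlapping neighbour Ppip5k1 had 202 reads without and 0 with run-off. In raw reads 8 of the 9 genes with 20 or more reads were lower with run-off, where 90.7% of all such genes were, and as a share of reads 5 were lower (Nefl, Nefm, Nefh, Ina and Dcx), where 75.8% of all such genes were.

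In adult retina the neurofilament subunits did not fall together. Nefl kept 95 of 622 reads (15.3%, interval 12.2 to 19.0), above the 6.72% of the library, whereas Ina had 90 and 0 reads (up to 4.18%). Its overlapping neighbour Nt5c2 had 1 read without and 27 with run-off. Nefm had 38 and 1 reads (2.63%, interval 0.0649 to 15.6) and Nefh 0 and 0. Mapt went from 546 to 0 reads (up to 0.678%), a share at least 12.2-fold lower. It was the only 1 of the 8 genes with 20 or more reads to fall at least 10-fold, where 0.438% of all such genes did. The floor of 3 reads limits this rule to genes with many reads. Ina and Map1a, both at 0 reads with run-off, could show falls of no more than 2.02-fold and 1.81-fold. Ina and Mapt were at least 2-fold lower (17.3%), a fall that the floor kept Nefm and Map1a from reaching. Nefl was at least 2-fold higher (27.3%) and 0 genes at least 10-fold higher (6.88%). Map1b kept 81 of 796 reads (10.2%, interval 7.99 to 12.8), Map2 18 of 135 (13.3%, interval 7.67 to 21.9) and Dclk1 10 of 292 (3.42%, interval 1.63 to 6.39), while Map1a had 81 and 0 reads (up to 4.66%) and Dcx 2 and 0. The intervals of Map1b and Map2 lay above the 6.72% of the library, and those of Dclk1 and Map1a below it. All 8 genes with 20 or more reads had fewer of them with run-off, where 94.6% of all such genes did, and 5 of the 8 had a lower share, where 66.9% of all such genes did. Nefl and Mapt had fewer raw reads with run-off in both tissues, but relative to the whole library they went opposite ways. Nefl kept 0.662% in SC and 15.3% in retina, and Mapt kept 50.5% in SC and 0% in retina. With 1 library each, the difference between the tissues was not tested.

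**Figure D4:**
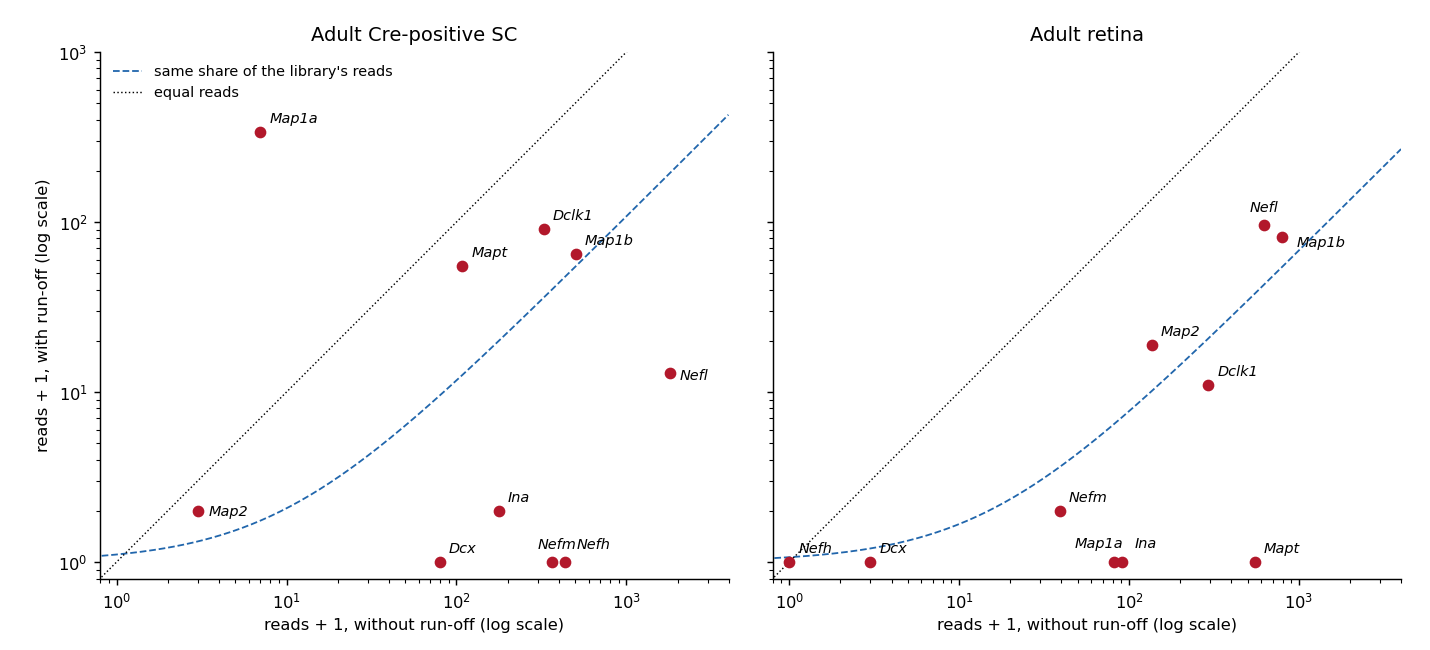
Reads with run-off (vertical) against reads without (horizontal), each plus 1 and on log axes, for the 10 genes in adult Cre-positive SC (left) and adult retina (right), with 1 library for each condition. The dotted line marks equal reads and the dashed line the reads a gene would have at the same share of its library; in SC the 4 neurofilament genes lie below the dashed line and Map1a far above both lines.

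The SC library without run-off also differed from the adult SC libraries of the stage series. Nefh, listed at 0 in all of those, had 436 reads in it, or 33.5 RPKM (reads divided by exon length and by library size), and Nefm had 19.2 RPKM. Nefl led the 10 genes at 164 RPKM and was followed by Nefh, Nefm, Ina at 16.7, Map1b at 9.73, Dclk1 at 6.51, Mapt at 4.35, Dcx at 1.91, Map1a at 0.151 and Map2 at 0.0373. In the retina library without run-off the order was Nefl at 39.3 RPKM, Mapt at 15.5, Map1b at 10.7, Ina at 5.93, Dclk1 at 4.07, Map2 at 1.75, Map1a at 1.42, Nefm at 1.40 and Dcx at 0.0337, with Nefh at 0 reads. In the stage series, adult Map2 was at 103 and 12.2 FPKM in Cre-positive SC and at 96.5 and 49.9 in Cre-negative SC. In the run-off experiment's SC library without run-off, by contrast, Map2 was the lowest of the 10 genes. Nefl, at 8.37 and 0 FPKM in adult Cre-positive SC of the stage series, was the highest. The counting differed between the experiments, and the libraries were made without cycloheximide in the run-off experiment, so the values are set side by side without a test.

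Other genes of the same cytoskeleton were followed in 5 lists with 54 measured genes, chosen like the 10 genes with earlier results of these data known. At P0.5, 34 of the 54 were tested between Cre-positive and Cre-negative SC, of which 6 were called higher and 2 lower, where 28.1% of all genes tested were higher and 4.35% lower. Their median log2 difference was 1.09, beside 0.78 over all genes tested. Among other intermediate filaments, 1 of 5 tested was higher and 1 lower: nestin (Nes), the filament of neural progenitors, by 4.41 ± 0.685 (adjusted p = 0.0005), and lamin B1 (Lmnb1), of the nuclear lamina, by -2.58 ± 0.845 (adjusted p = 0.0382). Among other structural microtubule-associated proteins, 1 of 11 was higher and 1 lower: Camsap1, which binds microtubule minus ends, by 3.52 ± 0.81 (adjusted p = 0.00633), and Map1lc3a, a light chain of the MAP1 proteins and an autophagy marker, by -6.57 ± 1.78 (adjusted p = 0.016).

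Of the proteins that track microtubule plus ends, 2 of 8 were higher at P0.5, Mapre2 by 2.86 ± 0.532 (adjusted p = 0.00163) and Mapre1 by 2.85 ± 0.821 (adjusted p = 0.021). Of the kinases that phosphorylate tau or neurofilaments, 2 of 9 were higher, Mark1 by 3.59 ± 0.3 (adjusted p = 9.72e-06) and Cdk5 by 5.78 ± 0.509 (adjusted p = 1.09e-05), and both had entered the fit through the P0.5 Cre-positive libraries alone, like Map1a. From P0.5 to P7.5 in axons, 7 of the 34 fell and 1 rose, Clasp2, by 2.77 ± 0.936 (adjusted p = 0.0472), where 29.2% of all genes fell and 0.501% rose. Against retina at P0.5, 11 of 32 were higher and 0 lower, where 32.7% of all genes were higher and 2.01% lower, and the median log2 difference was 1.78 beside 1.10 over all genes.

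Over the 24 libraries, the genes whose log2(FPKM + 1) ran most like the mean of Nefl, Nefm, Nefh and Ina were Gnas (Pearson r = 0.87), Stmn2 (0.87), Txn1 (0.86), Psmc3 (0.85) and Ndufa10 (0.85), out of 1435 genes at 1 FPKM or more in at least 12 libraries. Their Spearman coefficients were 0.84, 0.75, 0.72, 0.73 and 0.60. The genes most like the mean of the 6 microtubule-associated genes were Aftph (0.85), Cep170b (0.84), Kif1a (0.84), Ttc3 (0.81) and H2afy (0.80), with Spearman coefficients of 0.87, 0.77, 0.90, 0.88 and 0.83. The points share library and depth, and the coefficients are given as a description.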

How the data were processed

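Ribosome-bound mRNA was measured in 24 stage libraries and 4 run-off libraries, grouped by the sample labels. Reads had been mapped to mm10 by the authors (TopHat2 2.0.12). For the stage libraries the authors deposited FPKM made with Cufflinks 2.2.1. For the run-off libraries they deposited raw read counts per gene made with HTSeq 0.6.1p1. The authors' cDNA method was oligo(dT)-primed and kept no strand. Here, limma 3.58.1 (R 4.3.3, statmod 1.5.0, mean-variance trend, robust moderation) was fitted to log2(FPKM + 1), a scale that understates changes of low genes, over genes that reached 1 FPKM in 2 or more of the libraries fitted. The fits held the 16 SC libraries, the 8 retina libraries, or the 8 Cre-positive SC and 8 retina libraries. P-values are two-sided and adjusted over all genes tested, with a threshold of 0.05. The 4 genes with an entry that is not a number were left out. The fit was also run on simulated data, in which the spread of each gene was capped at the median spread. That run does not show how the fit behaves at the larger spreads of these data.

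The 10 genes and all lists were chosen with earlier results of these data known. All 10 genes are reported in every comparison, and of the other lists up to 4 called genes per list and comparison, by smallest p, except for an item that is not reported here. The counts of groups that do not overlap and the 20-read and 2- or 10-fold rules for run-off reads were set after the values were seen. Stage libraries keep no read totals, and their depth was estimated from single-transcript genes. Gene positions and lengths came from GENCODE for mm10, with no protein sequence table. Alternatives were a pseudocount of 0.1, no filter, median-ratio scaling, a replicate block, each replicate left out, a fit to 1 stage and run-off reads as a share of their library. Values and figures were made in Python 3.11.15 (pandas 2.3.3 with numpy 2.4.6, matplotlib 3.10.9, and scipy 1.17.1 for exact intervals).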

Additional observations from a re-analysis of the deposited data

Results flagged for a closer look

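For Map1a the interaction term of the limma fit, the stage change in Cre-positive minus that in Cre-negative SC, was 3.47 on the log2 scale from E17.5 to P0.5 and -3.59 from P0.5 to P7.5. It is given as a value and not as a tested difference, since the gene entered the fit only through the group where it was high. The gene was above 1 FPKM only in the 2 P0.5 Cre-positive SC libraries, at 16.3 and 6.20, and falls below the filter without either of them. No group had the 4 samples that a test for a single outlying library needs.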

How the results depend on the processing

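Of 194 counts of called genes under alternative settings, 153 stayed within 1.5 times the reported count and 41 did not. In 12 of the 20 comparisons 0 of the genes were called under every setting. A 0 that stayed 0 was counted among the 153, and these 12 comparisons add only such counts. The 153 therefore do not measure how stable the calls were. For Cre-positive against Cre-negative SC at P0.5, 1 gene was called with no filter on low values and 5 in the fit to that stage alone, instead of 2. From E17.5 to P0.5 in axons, a pseudocount of 0.1 and no filter each left 1 of 2, and from P0.5 to P7.5 a pseudocount of 0.1 left 1 of 2. A pseudocount of 0.1 called 2 genes instead of 1 in both interactions and in the contrast of later with earlier axons. Between P0.5 axons and retina, 2 genes were called with a pseudocount of 0.1 and 3 with no filter, instead of 5. Run-off shares of the library gave 5 genes lower in SC and 5 in retina, against 8 and 8 in raw reads. The causes were not tested.

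With each replicate left out in turn, the number called ranged from 0 to 1 for the P0.5 Cre comparison, from 0 to 2 for E17.5 to P0.5 and from 0 to 3 for its interaction, from 0 to 1 for P0.5 to P7.5 and for its interaction, from 0 to 3 for later against earlier axons, from 0 to 2 for axons against retina at E17.5 and from 0 to 1 at P0.5. A lone remaining library was taken to vary like the other groups. Without either P0.5 Cre-positive SC library Map1a falls below the filter and 0 genes were called in each comparison that holds P0.5 axons. In the P0.5 Cre comparison the log2 difference of Map1b ran from -0.74 to 0.51 and that of Map2 from -0.17 to 1.81, so neither had a settled direction.

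Same-numbered replicates of Cre-positive and Cre-negative SC deviated together at E17.5, P0.5 and P7.5 (correlations 0.42, 0.43 and 0.32 over 5983 genes) and not in adults (0.059), so the numbers were not taken as pairs. With a replicate block, 2 genes (Map1a and Dcx) and 3 genes (Map1a, Dcx and Ina) instead of 1 were called in the interactions of the first and second interval, and Nefl in neither, 3 instead of 5 between P0.5 axons and retina, and 3 instead of 2 in the P0.5 Cre comparison, where Dcx was added. Median-ratio scaling changed no call on these genes, but it moved the median over all genes from -0.50 to -0.12 for retina from E17.5 to P0.5, from 0.32 to 0.03 from P0.5 to P7.5, from 1.10 to 0.94 for P0.5 axons against retina and from 1.59 to 1.48 for the first interaction. Low depth in adult SC limits what could be seen there, and the run-off libraries have no replicates.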
